A study of Mus musculus with 24 samples.

Results

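Leptomeningeal fibroblast genes were followed through bulk RNA-seq of the prefrontal cortex (PFC) of male C57BL/6 mice. The set was named by symbol and held 10 genes: Dcn, Lum, Ogn, Fmod, Igf2, Igfbp2, Islr, Slc6a13, Slc13a4 and Aldh1a2. Of these, 9 had a row among the 14074 genes of the table of normalised counts, all 9 passed the filter on low values with 13542 genes in all, and Igf2 was not analysed here. The set is a fixed list named for 1 cell type, with no threshold on measured values, and it was drawn up with earlier results of these libraries known. Whether the RNA of each gene came from these cells alone was not tested.

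The 24 mice formed 6 groups of 4, and each mouse gave 1 library. Control mice had no defeat experience and were housed singly for some days beforehand, and stressed mice went through 30 days of chronic social defeat by aggressive CD1 males and were then sorted by behavioural clustering into a passive coping (PS) and an active coping (AS) phenotype. Mice of each kind received saline or dexamethasone (DEX, a synthetic agonist of the glucocorticoid receptor) at 2 mg/kg, and tissue was taken 6 h later. The groups are therefore control saline, control DEX, PS saline, PS DEX, AS saline and AS DEX, all of them adult wild-type males, so that PS and AS differ from control by the stress and from each other by the behaviour that defined them. The tissue was a hand-dissected block of frontal cortex, and nothing in the sources used here says that the membranes over it were removed.

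The leptomeninges are the pia and the arachnoid, thin sheets that cover the brain surface and follow the large vessels inward. Their fibroblasts make the collagen matrix of the brain surface, carry solutes between cerebrospinal fluid and blood, and release retinoic acid and growth factor binding proteins. In bulk cortex the RNA of these cells enters with whatever membrane stays on the block, and in such samples fewer cells of a type and less RNA per cell cannot be told apart.

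The 9 genes cover 4 roles. Dcn (decorin), Lum (lumican), Ogn (osteoglycin) and Fmod (fibromodulin) are small leucine-rich proteoglycans that bind collagen fibrils, and Islr is a related leucine-rich repeat protein of mesenchymal cells. Igfbp2 encodes a secreted protein that binds insulin-like growth factors. Slc6a13 encodes the GABA transporter GAT2 and Slc13a4 a sodium-coupled sulfate transporter, both of the membranes around the brain, and Aldh1a2 makes retinoic acid from retinaldehyde. On GRCm38, the genes lie at chr10:97479609-97518143 (Dcn), chr10:97565128-97572703 (Lum), chr13:49608046-49624501 (Ogn), chr1:134037254-134048277 (Fmod), chr1:72824503-72852474 (Igfbp2), chr9:58156268-58204306 (Islr), chr6:121300227-121337733 (Slc6a13), chr6:35267957-35308131 (Slc13a4) and chr9:71215789-71296243 (Aldh1a2), of which Islr and Slc13a4 are on the minus strand. Dcn and Lum are neighbours on chromosome 10.

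DEX acts through the glucocorticoid receptor, and the promoter windows of a pair of members are shown for this reason. Slc6a13 is the member with the highest average DEX change at an equal level of other fibroblast genes, and Igfbp2 the one that moved least with the rest of the set. Each run is the 250 bases before a RefSeq gene start on GRCm38.p6, plus strand, at chr6:121300038-121300287 for Slc6a13 and chr1:72824230-72824479 for Igfbp2. Capitals mark the letters AGAACA, the hexamer of the glucocorticoid receptor element, searched on both strands. Both genes have further such windows, and the one with the lowest position is printed for each. Those not printed held AGAACA 0 times, that of Igfbp2 included.
Slc6a13: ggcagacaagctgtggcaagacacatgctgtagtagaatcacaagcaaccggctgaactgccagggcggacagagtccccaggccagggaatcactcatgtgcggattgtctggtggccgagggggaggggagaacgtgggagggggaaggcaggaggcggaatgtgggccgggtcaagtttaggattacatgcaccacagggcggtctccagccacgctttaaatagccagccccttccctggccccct
Igfbp2: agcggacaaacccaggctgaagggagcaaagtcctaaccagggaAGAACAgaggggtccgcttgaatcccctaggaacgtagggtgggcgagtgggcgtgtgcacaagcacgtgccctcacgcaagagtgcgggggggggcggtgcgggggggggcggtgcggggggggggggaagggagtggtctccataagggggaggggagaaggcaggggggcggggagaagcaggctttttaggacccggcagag
Of all 32851 RefSeq promoter windows of this length, 16.1% held AGAACA, and 2 of the 10 windows of the members did, 1 of Igfbp2 and 1 of Islr. The full palindrome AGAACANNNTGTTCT, which contains this hexamer, was in 0.00913% of all windows and in 0 of the 10, and TATAAA was in 12.4% of all windows and in 1 of the 10 (Ogn). The 10 windows belong to 7 members. Dcn and Lum were not matched. These counts describe the letters of these windows and nothing more.

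Depth ran from 21121869 to 59439645 recovered reads per library, with a median of 24420129. The AS groups had the highest median depth, 34242531.5 reads in AS saline and 37876626 in AS DEX against 22869703 to 24187702 in the other groups. Single libraries crossed this order, with the deepest of all in PS saline (mouse 28) and AS saline mouse 8 at 23481722. With library size as a covariate 0 members were called in AS with DEX, beside 1068 of 13542 genes (1262 without the covariate). Aldh1a2 was at -0.67 in that fit (limma, adjusted p = 0.147). The genes called between AS and control with DEX went from 123 to 0. The part that depth played in the AS comparisons was not tested further. The DEX labels were checked with Fkbp5, a textbook target of the glucocorticoid receptor. Its normalised count was 761 to 1088 in the 12 saline libraries and 2931 to 4198 in the 12 DEX libraries, with no overlap. Pyramidal neuron markers of the labelled cortex were present, with Slc17a7 between 41900 and 54240 normalised counts and Camk2a between 98780 and 163800. The 29 other leptomeningeal fibroblast genes were found in every library too, with Ptgds (prostaglandin D2 synthase, also made by oligodendrocytes) the most abundant at 15170 to 47900. Of 10 choroid plexus and ependyma markers, 3 had a row (Kcnj13, Aqp1 and Enpp2), and Ttr, Kl, Folr1, Clic6, Otx2, Foxj1 and Tmem212 were not analysed here.

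Levels between genes were compared per kilobase of exon. Igfbp2 was the most abundant member, at a mean of 820.5 normalised counts per kilobase over the 24 libraries, followed by Fmod at 371 and Islr at 285. Ogn (159), Aldh1a2 (147), Slc13a4 (145) and Slc6a13 (136) lay close together, and Dcn (63.5) and Lum (23.4) were lowest. Lum had 18 to 148 reads per library, for a counting error of up to 23.6%, while every other member had at least 143 reads in each library. The highest group mean was that of AS saline for 6 of the 9 members, control DEX for 2 (Fmod and Slc6a13) and PS saline for 1 (Ogn). The lowest was that of PS DEX for 7 members and control saline for the other two.

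**Figure D1:**
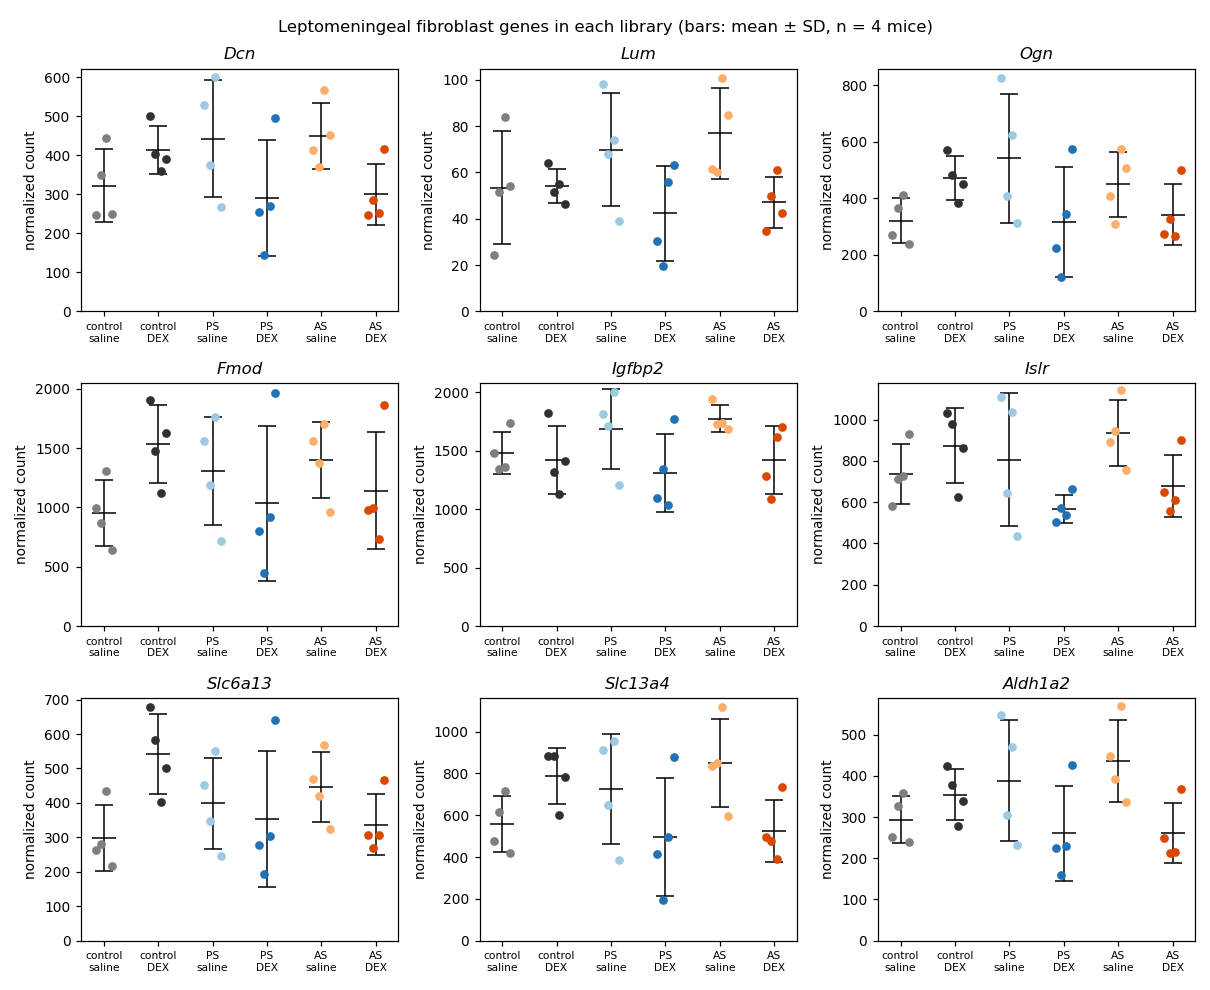
Normalised count (y axis, linear, from 0) of the 9 leptomeningeal fibroblast genes in each of the 24 libraries, 1 panel per gene and 1 column of points per group; horizontal lines are the mean and bars the SD of 4 mice. Within PS DEX the points of Slc13a4 ran from 196 to 877, and in no panel did the saline and DEX mice of the same kind separate.

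Several libraries stood apart from the rest of their group, and they are named before the comparisons. A score was made for each library as the mean of the 9 genes on the log2 scale after each gene was centred over the 24 libraries. It was lowest in PS DEX mouse 34 (-1.08) and highest in AS saline mouse 40 (0.66), a range of 1.74 or 3.34-fold. PS DEX also held mouse 56, at 0.44, so that the lowest library and one of the higher ones belonged to the same group of 4. PS saline was uneven too (SD 0.53, against 0.63 in PS DEX), with mouse 68 at -0.51 beside mice 2 and 62 at 0.61 and 0.59. AS DEX mouse 72 stood at 0.26, while the other three mice of its group lay between -0.35 and -0.34. Differences between the 6 groups made up 36.1% of the sum of squares of this score and differences between mice of the same group 63.9%. For single members the share between groups ran from 25.1% (Fmod) to 39.4% (Aldh1a2).

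The genes moved together from library to library. Over the 24 libraries, Pearson's r between members ran from 0.48 to 0.95 in the 36 pairs, with a median of 0.76. Dcn, Ogn, Fmod, Slc6a13, Slc13a4 and Aldh1a2 were the closest, at 0.82 to 0.95 in their 15 pairs, a subset named after its values were seen. Igfbp2 was the least alike, at 0.48 to 0.72 with the others. All pairs share the same libraries, size factors and groups, so these values describe the set and carry no test.

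Other marker lists were scored in the same libraries. The score of the 29 other leptomeningeal fibroblast genes followed that of the 9 with r = 0.98 over the 24 libraries, and with r = 0.97 after each group was centred on its own mean. The correlation with 5 markers of border macrophages (Mrc1, Lyve1, Pf4, Cbr2 and Stab1), the macrophages of the meninges and perivascular spaces, was 0.92. It was 0.69 with 10 mural genes, 0.63 with 8 astrocyte genes, 0.57 with 10 endothelial genes, 0.51 with the 3 choroid plexus genes, 0.50 with 8 microglia genes and 0.33 with 5 blood genes. With groups centred these became 0.89 for border macrophages, 0.62 for mural, 0.47 for endothelial, 0.44 for astrocyte, 0.41 for choroid plexus, 0.18 for microglia and 0.11 for blood genes. It was negative with 8 oligodendrocyte genes (-0.61), 6 GABAergic genes (-0.58), 4 striatal genes (-0.40) and 6 pyramidal neuron genes (-0.26), and with groups centred -0.43, -0.46, -0.16 and -0.17 in the same order. The lists were scored on the same 24 libraries, and the neuronal and oligodendrocyte lists share their size factors with the members.

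**Figure D2:**
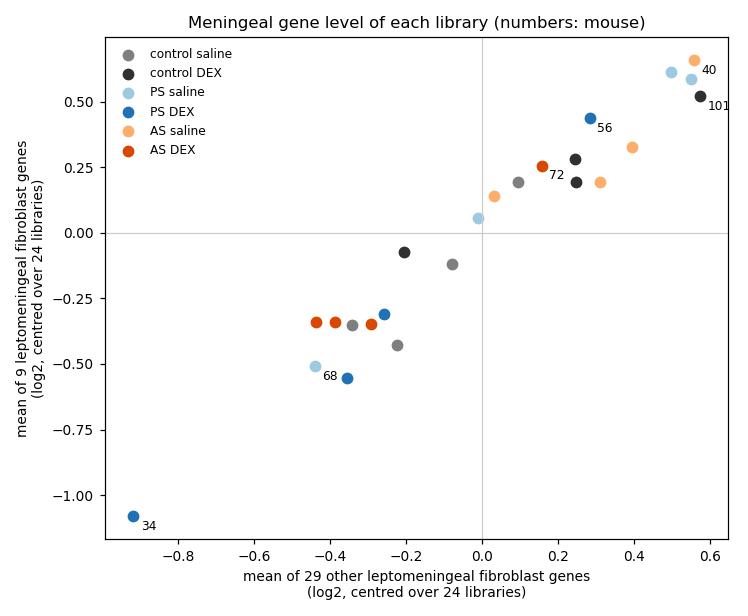
Score of the 9 leptomeningeal fibroblast genes (y axis) against the score of 29 other leptomeningeal fibroblast genes (x axis), both in log2 units centred over the 24 libraries. Each point is 1 mouse, coloured by group, with some mouse numbers. The points lie along 1 line from PS DEX mouse 34 at -0.92 and -1.08 to AS saline mouse 40 at 0.56 and 0.66, and every group but AS saline, whose 4 mice are all above 0, has mice on both sides of 0.

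The genes most like the set were found among all other genes tested, by their correlation with the mean of the standardised members over 24 libraries. They were Serping1 (0.97), Efemp1 (0.95), Ptgds (0.95), Pcolce (0.95), Col1a2 (0.94), Slc6a20a (0.94), Slc47a1 (0.94), Aebp1 (0.94), Cnn2 (0.94) and Mgp (0.94), and 7 of these 10 were in the list of other leptomeningeal fibroblast genes. Slc47a1, a transporter of organic cations, spanned 56.9 to 444 normalised counts, and Col1a2, a chain of type I collagen, 553 to 1761.

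**Figure D3:**
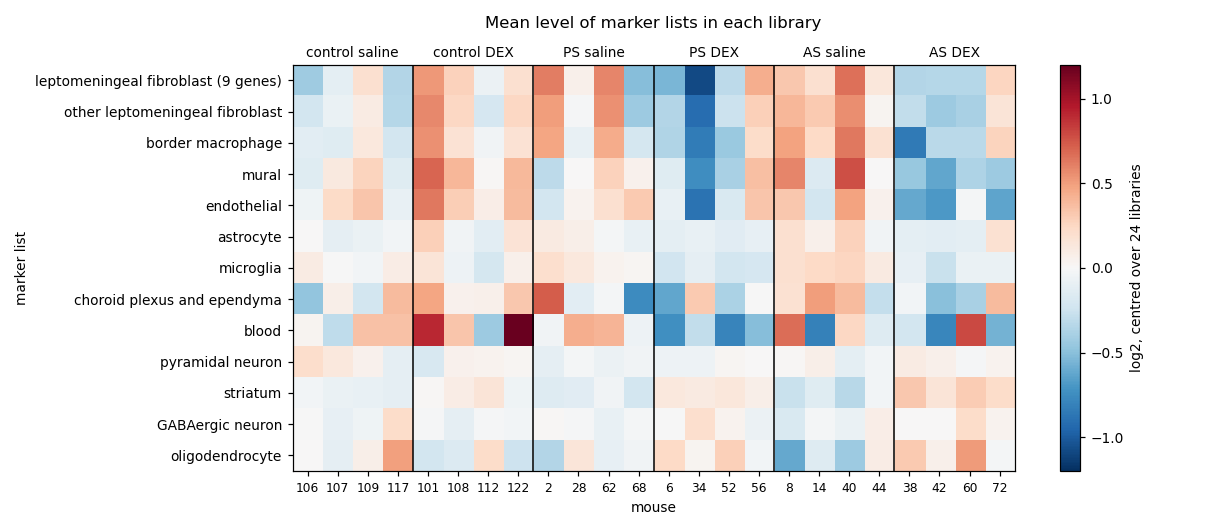
Score of 13 marker lists (rows) in each of the 24 libraries (columns, labelled by mouse and ordered by group), as mean log2 level centred over the libraries, red high and blue low. The rows of both leptomeningeal lists and of border macrophages follow each other most closely (r of 0.92 or more with the 9 genes), with PS DEX mouse 34 lowest or near it in each.

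Chronic stress was examined first, in mice that received saline. All 9 members had higher fitted levels in PS than in control, by 0.05 (Islr, SE 0.22) to 0.69 (Ogn, SE 0.34) on the log2 scale, with a median of 0.40 against 0.00 over all genes. None passed the test (limma, Benjamini-Hochberg adjusted p of at least 0.385), where 1.53% of all 13542 genes were called. In AS the 9 were higher by 0.27 (Igfbp2, SE 0.17) to 0.61 (Lum, SE 0.34), with a median of 0.56, and again 0 were called (adjusted p of at least 0.436) beside 0.118% of all genes. At an unadjusted p under 0.05 there were 0 members in PS and 1 in AS, beside 13.3% and 11.1% of all genes. On recovered reads edgeR and DESeq2 also called 0 members in each, where they called 212 and 427 genes in PS and 24 and 99 in AS. Some other marker lists shifted too, with 0 of their genes called. All 8 oligodendrocyte genes were lower than in control, with medians of -0.17 in PS and -0.44 in AS. Of 5 border macrophage genes 4 were higher in PS and 5 in AS (medians 0.23 and 0.45). Of 10 mural genes 3 were higher in PS and 10 in AS (medians -0.03 and 0.21). Their part in the shift of the members was not tested.

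Among the members, Ogn showed how uneven the mice behind the stress comparisons were. Its normalised count was 240, 269, 365 and 411 in control saline, 312, 409, 623 and 823 in PS saline, and 309, 409, 507 and 573 in AS saline. The lower mice of each stressed group lay within the control range and the higher ones above it. The same held for Dcn, at 248 to 445 in control saline, 267 to 600 in PS saline and 370 to 567 in AS saline. Between AS and PS no member was called (0 of 9, 0 at an unadjusted p under 0.05, 0 with edgeR or DESeq2, differences of -0.21 to 0.29), and limma called 0.00% of all genes there, with 646 at an unadjusted p under 0.05, 0 with edgeR and 11 with DESeq2. The saline groups of both stress comparisons share the same 4 control libraries.

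DEX was then compared with saline within each kind of mouse. In control mice 8 of 9 members had higher fitted levels with DEX, with a median of 0.39, and in PS and AS mice all 9 had lower ones, with medians of -0.59 and -0.47. The medians over all genes were -0.01, -0.00 and 0.00. Single members passed the test in 2 of these 3 comparisons. Slc6a13 rose in control mice, 1 of 9 members beside 6.76% of all genes called (4.20% higher). Aldh1a2 fell in AS mice, 1 of 9 beside 9.32% of all genes (5.28% lower). In PS mice 0 of 9 were called beside 5.66% of all genes, with 5 members and 14.1% of all genes at an unadjusted p under 0.05. There edgeR called 0 members and 769 genes and DESeq2 0 members and 920 genes. The saline and DEX mice of the same kind overlapped for every member. Over all genes, 5.95% lay wholly higher and 4.42% wholly lower with DEX in control mice, 5.73% and 4.69% in PS mice, and 4.15% and 5.16% in AS mice.

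Slc6a13, the GABA transporter GAT2, had normalised counts of 216, 262, 282 and 434.5 in control saline and 404, 501, 583 and 679 in control DEX. All control DEX mice but mouse 112 exceeded every control saline mouse, and mouse 112 fell below control saline mouse 109. The rise was 0.88 (SE 0.29, 1.84-fold, adjusted p = 0.0918). In PS mice the values were 246, 347, 451 and 550 with saline and 194, 278, 304 and 642 with DEX. In AS mice they were 324.5, 420, 470 and 568 with saline and 269, 306, 308 and 466 with DEX. Both ranges of each phenotype overlapped, and the fitted differences were -0.25 (SE 0.29) in PS and -0.40 (SE 0.29) in AS. The call in control mice was lost when any of 13 of the 24 libraries was left out, among them control saline mice 106, 107 and 117 and control DEX mice 101, 108 and 122, and edgeR and DESeq2 did not make it (0.86 in each). Over all 24 such fits the change ran from 0.74 to 1.08 with an adjusted p of 0.0377 to 0.247.

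Slc13a4, the sulfate transporter, had 422, 475, 617 and 715 normalised counts in control saline and 602, 784, 884 and 884 in control DEX. In PS mice it had 386, 647.5, 914 and 953 with saline and 196, 416.5, 496.5 and 877 with DEX. In AS mice it had 598, 837, 850 and 1116 with saline and 390, 475, 498 and 737 with DEX. AS DEX mice 38, 42 and 60 lay below every AS saline mouse, and mouse 72 lay within their range. With DEX its fitted level changed by 0.51 in control mice, -0.65 in PS mice and -0.70 in AS mice (SE 0.33 each), and none was called.

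Aldh1a2, which makes retinoic acid, had 338, 391, 449 and 568 normalised counts in AS saline and 212, 216, 249 and 367 in AS DEX. The groups overlapped through AS DEX mouse 72 and AS saline mouse 44 alone. Aldh1a2 fell by 0.75 on the log2 scale (SE 0.26, adjusted p = 0.0998), just inside the threshold of 0.1. Left out in turn, 16 of the 24 libraries each ended this call, all 4 control saline mice, AS saline mice 8, 14 and 40 and AS DEX mice 38, 42 and 60 among them. Over all 24 such fits the change ran from -0.92 to -0.61 with an adjusted p of 0.0549 to 0.299. Its values were 240, 251, 326 and 357.5 in control saline, 278, 339, 378 and 423 in control DEX, 231, 305, 471 and 548 in PS saline and 160, 224, 231 and 427 in PS DEX. Neither difference passed the test, at 0.28 in control and -0.59 in PS (SE 0.26 each).

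Igfbp2 had the narrowest spread of the set, 1.94-fold over all libraries. It stood at 1686, 1730, 1737 and 1945 normalised counts in AS saline, and at 1087, 1281, 1614 and 1702 in AS DEX. In PS it stood at 1206, 1713, 1812 and 2006 with saline and at 1034, 1094, 1343 and 1773 with DEX. In control mice it stood at 1344, 1358, 1481 and 1739 with saline and at 1133, 1314, 1415 and 1826 with DEX, the only member whose fitted level was lower there, at -0.07 (SE 0.17). Averaged over control, PS and AS mice, Igfbp2 fell by 0.26 on the log2 scale with DEX (SE 0.10, adjusted p = 0.0919). It was the only one of the 9 called in this average, beside 16.3% of all genes (8.40% lower). Leaving out any of 15 of the 24 libraries ended the call, and over all 24 such fits it ran from -0.31 to -0.22 with an adjusted p of 0.0259 to 0.171.

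Fmod, a collagen-binding proteoglycan, had 637.5, 864, 999 and 1306 normalised counts in control saline and 1123, 1471, 1629 and 1907 in control DEX, a difference of 0.71 (SE 0.35, adjusted p = 0.326) that was not called. With DEX it had 444, 801, 923 and 1967 in PS and 732, 980, 994 and 1863 in AS, so that a single mouse in each, 56 and 72, lay near the highest control DEX mouse. Saline mice had 718 to 1761 in PS and 960 to 1703 in AS. Lum ranged from 19.8 to 101 normalised counts over all libraries and Islr from 436 to 1141, and neither was called by limma in any comparison with all 24 libraries.

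The PS comparison depended on single mice. Without PS DEX mouse 56, 5 members were called lower with DEX in PS, beside 2.89% of all genes, namely Ogn (-1.25, adjusted p = 0.0270), Dcn (-0.97, adjusted p = 0.0371), Aldh1a2 (-0.86, adjusted p = 0.0586), Slc13a4 (-0.99, adjusted p = 0.0793) and Igfbp2 (-0.53, adjusted p = 0.0934). Without PS saline mouse 68, 3 were called lower (Islr, Ogn and Dcn, -1.12 to -0.67), beside 2.59% of all genes. With both PS DEX mice 34 and 56 left out, an alternative chosen after the data were seen, Igfbp2 alone was called (-0.64, adjusted p = 0.0839), beside 1.64% of all genes lower. In the average over the 3 kinds of mice, 4 members were called lower without PS DEX mouse 56 (Aldh1a2, Dcn, Igfbp2 and Lum, beside 8.37% of all genes) and 4 without PS saline mouse 68 (Aldh1a2, Igfbp2, Islr and Lum, beside 8.26%). Without AS DEX mouse 72, 2 were called lower there (Aldh1a2 and Igfbp2), beside 8.12% of all genes.

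The difference between DEX responses was tested itself. In PS against control mice it was negative for all 9 members, from -1.47 (Ogn, SE 0.48) to -0.30 (Igfbp2, SE 0.24), and limma called 0 of 9 and 0.00% of all genes. At an unadjusted p under 0.05 there were 6 members and 1388 genes, and edgeR called 0 members and 0 genes and DESeq2 0 members and 25 genes. In AS against control it was also negative for all 9, from -1.29 (Slc6a13, SE 0.41) to -0.27 (Igfbp2, SE 0.24), with 0 of 9 called beside 0.340% of all genes, and with 6 members and 1877 genes at an unadjusted p under 0.05. There edgeR called 0 members and 99 genes and DESeq2 0 members and 442 genes. Slc6a13 had the lowest adjusted p there, 0.163, which passed the threshold without control DEX mouse 112 (0.0808), AS saline mouse 44 (0.0756) or PS DEX mouse 56 (0.0982). Between AS and PS the differences ran from -0.16 to 0.49, with 0 called of 9 (0 at an unadjusted p under 0.05, 0 by edgeR and DESeq2) and 0.00% of all genes called by limma, of which 333 had an unadjusted p under 0.05, and 0 by edgeR and DESeq2. The control libraries enter both interactions with control, so the shared sign is not repeated evidence.

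Among DEX-treated mice, all 9 members had lower fitted levels in PS than in control (-0.84 to -0.13) and in AS than in control (-0.69 to -0.00). None was called in PS (0.199% of all genes called) or in AS (0.908% of all genes), nor by edgeR or DESeq2. At an unadjusted p under 0.05 there were 6 members and 14.2% of all genes in PS, and 1 member and 13.8% of all genes in AS. Without PS DEX mouse 56, Slc13a4 (-1.18, adjusted p = 0.0866) and Slc6a13 (-1.06, adjusted p = 0.0849) were called lower in PS, beside 1.12% of all genes.

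The 29 other leptomeningeal fibroblast genes went the same way. With saline, 28 of 29 were higher in PS and 29 of 29 in AS than in control, with medians of 0.28 and 0.46 and 0 called in each. With DEX, their median change was 0.36 in control mice, -0.45 in PS mice and -0.55 in AS mice. In AS mice 6 of 29 fell, beside 5.28% of all genes, Crabp2, Aebp1, Slc22a6, Bgn, Gjb2 and Ranbp3l, by 1.08 for Gjb2 (connexin 26, SE 0.26, adjusted p = 0.0129) and 0.99 for Slc22a6 (an organic anion transporter, SE 0.34, adjusted p = 0.0928). In PS mice Gjb2 and Ranbp3l fell, 2 of 29 beside 2.81% of all genes, and in control mice Cyp1b1 rose, 1 of 29 beside 4.20%. In the 3 tests of a difference between DEX responses limma called 0 of 29. Both lists were chosen with earlier results of these libraries known, so their directions are not independent of those results.

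Cells that share the brain surface and vessel wall with these fibroblasts moved as well. Lyve1, a marker of border macrophages, was at 31.1 to 38.5 normalised counts in control saline and 95.2 to 108 in control DEX. It rose by 1.55 in control (SE 0.20, adjusted p = 1.68e-05) and by 0.73 in PS (SE 0.20, adjusted p = 0.0348). Pf4, of the same list, fell by 1.86 in PS (SE 0.45, adjusted p = 0.0154) and by 1.60 in AS (SE 0.45, adjusted p = 0.0326). The 5 listed border macrophage genes thus went both ways with DEX, with Cbr2 also lower in AS, and Cd163, F13a1 and Ms4a7 were not analysed here. Their summed level was 756 to 1057 in control saline, 1151 to 1490 in control DEX, 842 to 1245 in PS saline, 572 to 1165 in PS DEX, 846 to 1561 in AS saline and 675 to 1081 in AS DEX, most of it Stab1.

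Some vessel wall markers fell in AS mice. Of 10 mural genes 6 fell with DEX, Vtn, Rgs5, Tagln, Acta2, Notch3 and Myl9, among them Acta2 (smooth muscle actin) by 1.66 (SE 0.38, adjusted p = 0.00777), and 0 fell in PS or control. Of 10 endothelial genes 4 fell in AS, Tek, Pecam1, Flt1 and Cdh5, with Tek (the angiopoietin receptor) at -1.25 (SE 0.25, adjusted p = 0.00270), and Tek alone in PS, beside 5.28% of all genes lower in AS and 2.81% in PS. The DEX responses of AS mice were not shown to differ for these lists, since limma called 0 of 10 genes of either one in the differences from control and from PS. Among DEX mice, 4 of 10 mural genes (Vtn, Rgs5, Acta2 and Notch3) were lower in AS than in control. So were 4 of 10 endothelial genes (Flt1, Slco1a4, Abcb1a and Kdr), beside 0.908% of all genes called. In PS 0 of 10 of either list were called there. With library size as a covariate 0 of all genes were called between AS and control with DEX. The summed mural level, led by Rgs5, was 5439 to 9666 in AS saline and 4170 to 5202 in AS DEX, and the summed endothelial level, led by Flt1, was 6057 to 9868 and 4474 to 6890. In AS mice the summed level of the 9 fibroblast genes was 5707 to 8075 with saline and 4257 to 6993 with DEX. Oligodendrocyte genes went the other way, with Mal, Mobp and Mbp among those that rose. The part that these other cells played in the changes of the members was not tested.

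The score of the 29 other leptomeningeal fibroblast genes was then entered as a covariate in the same limma model, so that each member was compared between groups at an equal level of these genes. The slopes per unit of the score were 1.16 to 1.51 for Fmod, Slc13a4, Ogn, Slc6a13, Dcn and Aldh1a2, in descending order, 0.90 for Lum, 0.77 for Islr and 0.47 for Igfbp2. In the stress comparisons, the median difference of the 9 moved to 0.04 in PS (0.40 without the covariate) and to -0.01 in AS (0.56 without it). The medians of the differences in DEX response from control moved to -0.03 in PS (-1.06 without it) and to 0.08 in AS (-0.99 without it). The DEX medians became -0.02 in control, -0.06 in PS and 0.06 in AS. The score followed that of the 9 genes with r = 0.98, and 0.97 with groups centred. Adjusted medians near 0 were thus largely set by the choice of covariate and are not a separate result. What the fit can show is a member that departs from the other fibroblast genes. Aldh1a2 was no longer called in AS, at -0.09 (SE 0.10, adjusted p = 0.793), nor Igfbp2 in the average, at -0.16 (SE 0.09, adjusted p = 0.334).

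Slc6a13 and Fmod were called in the average DEX response once the score was in the model, and not without it. Without the covariate the average was 0.08 for Slc6a13 (SE 0.17, adjusted p = 0.880) and -0.04 for Fmod (SE 0.20, adjusted p = 0.959). With it, the fitted DEX response of Slc6a13 was smaller in control mice and turned positive in PS and AS mice, at 0.43 in control (SE 0.11, adjusted p = 0.0230), 0.34 in PS (SE 0.11, adjusted p = 0.140) and 0.31 in AS (SE 0.12, adjusted p = 0.198). Its average over the 3 was 0.36 (SE 0.06, 1.28-fold, adjusted p = 2.57e-04), beside 14.5% of all genes called in that model. It held in 24 of 24 fits with 1 library left out, at 0.30 to 0.39 and an adjusted p of 4.20e-05 to 0.00237. Fmod was called in the average too (0.30, SE 0.08, adjusted p = 0.00910, again in 24 of 24 such fits) and in AS (0.50, SE 0.14, adjusted p = 0.0553), where the call held in 20 of 24 fits with an adjusted p of up to 0.380. The score itself holds genes that DEX changed, so another score was made after the data were seen without the 8 listed genes called in a DEX comparison. With it, beside 15.3% of all genes called, Slc6a13 was called in the average (0.28, SE 0.06, adjusted p = 0.00221) and not in control mice (0.34, adjusted p = 0.1004), Fmod was not called in the average (0.20, adjusted p = 0.105) or in AS (0.40, adjusted p = 0.184), and Aldh1a2 was called lower (-0.17, SE 0.05, adjusted p = 0.0425). Of the 8 genes removed, Cyp1b1 alone was called higher with DEX and the others lower. Their removal by itself tends to lower the fitted DEX changes of the members, so these shifts are no independent check.

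**Figure D4:**
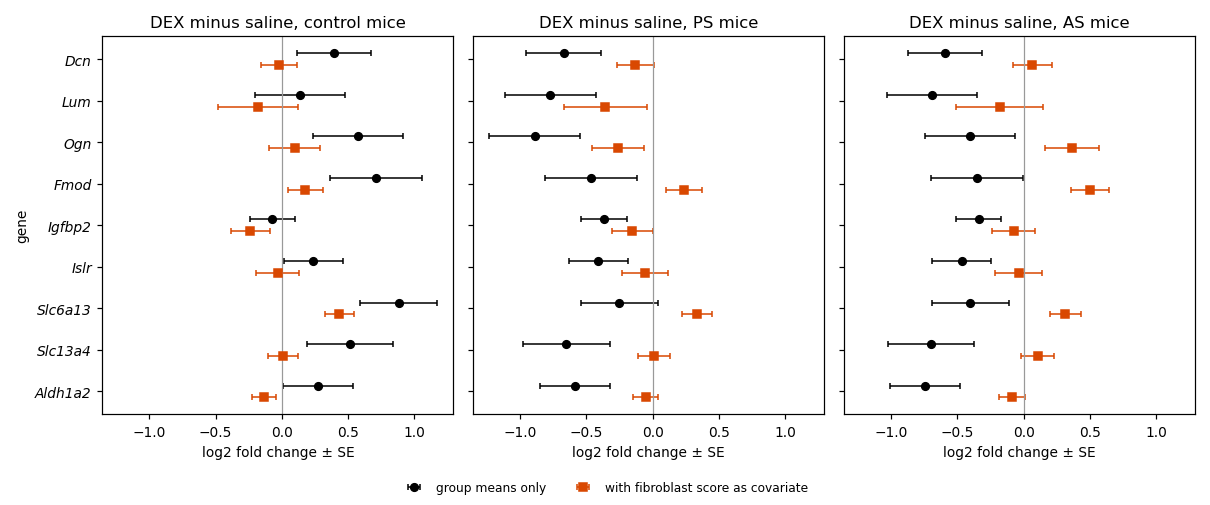
Log2 fold change with DEX (x axis, bars are 1 SE) of each of the 9 genes (rows) in control, PS and AS mice, from the model of group means (black circles) and from the model with the score of 29 other leptomeningeal fibroblast genes as covariate (orange squares). The circles lie right of 0 for 8 of 9 genes in control and left of 0 for all in PS and AS, and with the covariate Slc6a13 and Fmod lie right of 0 in all 3 panels.

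The pair of transporters was also set side by side without a model. Slc6a13 per 100 normalised counts of Slc13a4, a ratio chosen after the values were seen and given with no test, was 53.2 ± 6.38 in control saline, 56.1 ± 6.14 in PS saline and 52.7 ± 3.09 in AS saline (mean ± SD, n = 4). With DEX it was 68.4 ± 5.75 in control, 75.1 ± 16.8 in PS and 65.1 ± 9.69 in AS. The 12 saline libraries lay between 45.6 and 63.8 and the 12 DEX libraries between 56.7 and 99.1, and 8 of the 12 DEX libraries lay above every saline library. The highest, at 99.1, was PS DEX mouse 34, the library with the fewest counts of both genes.

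**Figure D5:**
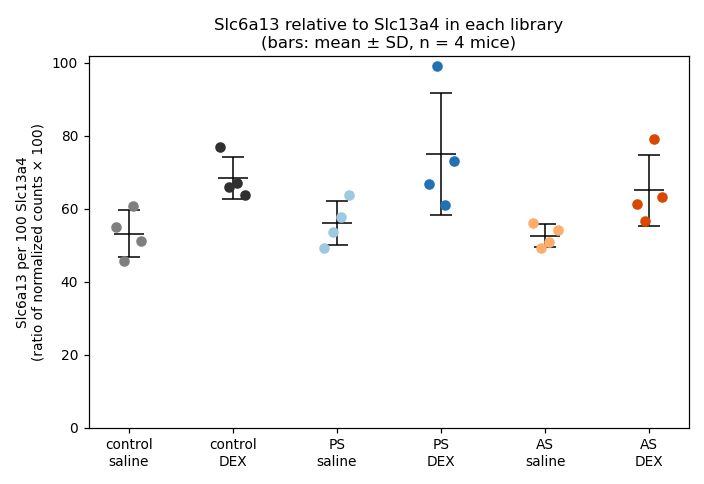
Slc6a13 per 100 normalised counts of Slc13a4 (y axis, from 0) in each of the 24 libraries by group; lines are the mean and bars the SD of 4 mice. DEX group means of 65.1 to 75.1 stand above saline means of 52.7 to 56.1, with some overlap of single mice.

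Pathway partners of the members were read from 4 further lists. The proteoglycan list shares 3 of its 9 genes with the other leptomeningeal fibroblast genes (Bgn, Col1a1 and Col1a2) and the retinoic acid list holds Crabp2 from them too, so the calls of Bgn and Crabp2 are those given above. Of 9 genes that share the work of the small leucine-rich proteoglycans or bind decorin, 0 were called between stressed and control mice with saline. With DEX against saline 4 fell in AS (Tgfb1, Tgfb2, Podn and Bgn), 2 in PS (Tgfb1 and Tgfb2) and 0 in control, beside 5.28% of all genes lower in AS and 2.81% in PS, and limma called 0 of 9 in the 3 tests of a difference between DEX responses. Among DEX mice Tgfb1 was lower than in control in PS (-0.52, adjusted p = 0.0717) and in AS (-0.48, adjusted p = 0.0517). Tgfb1, a growth factor that decorin binds, fell by 0.67 in AS (SE 0.11, adjusted p = 4.15e-04) and by 0.47 in PS (SE 0.11, adjusted p = 0.0143). Of 11 genes of the insulin-like growth factor system, Igf1r, the receptor, rose in all 3 kinds of mice, by 0.415 in control (SE 0.08, adjusted p = 0.00176), 0.30 in PS (SE 0.08, adjusted p = 0.0272) and 0.285 in AS (SE 0.08, adjusted p = 0.0304). Igfbp3, a relative of Igfbp2, rose by 0.73 in control (SE 0.11, adjusted p = 1.65e-04) and by 0.37 in PS (SE 0.11, adjusted p = 0.0672). Irs2 rose in PS and AS and Igfbp7 fell in AS, while 0 of the 11 were called between stressed and control mice with saline. Among DEX mice Igfbp3 was lower than in control in PS (-0.52, adjusted p = 0.0717) and in AS (-0.62, adjusted p = 0.0279).

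Of 14 genes of retinoic acid synthesis, breakdown and response, 1 was called in each DEX comparison, Stra6 higher in control, Rara higher in PS and Crabp2 lower in AS, a share near the 6.76%, 5.66% and 9.32% of all genes called. Stra6, a receptor for retinol-binding protein, was at 195 to 261 normalised counts in control saline and 333 to 494 in control DEX, a rise of 0.76 (SE 0.21, adjusted p = 0.0337). Crabp2, which carries retinoic acid to its receptors, fell by 0.91 in AS (SE 0.27, adjusted p = 0.0415). Of 6 other GABA, taurine, sulfate or dicarboxylate transporters, 3 fell in AS (Slc13a3, Slc13a5 and Slc6a6), beside 5.28% of all genes, and 0 were called in PS or control, with 0 of 6 called by limma in the differences between DEX responses. Slc13a5, the sodium-coupled citrate transporter, fell by 0.37 in AS (SE 0.09, adjusted p = 0.00989). Both lists had 0 calls between stressed and control mice with saline. Among DEX mice Stra6 was lower than in control in PS (-0.95, adjusted p = 0.0782) and in AS (-0.99, adjusted p = 0.0436).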

How the data were processed

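PFC libraries were poly(A)-selected, strand-specific and paired-end. The submitters' processing notes name fastp 0.20.1, HISAT2 2.2.1, featureCounts of Subread 2.0 and DESeq2 1.36.0 on GRCm38. The authors deposited a signal table, featureCounts reads per gene after division by a DESeq2 size factor for each library. Within a tolerance of 0.01 read, 100% of the values were whole multiples of 1 read, so whole reads were recovered for depth and count tests. The deposited tables of the authors' comparisons hold fold changes and p-values and were not used.

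Groups came from the sample labels. In R 4.3.3, limma 3.58.1 (eBayes with a trend) was fitted to log2(normalised count + 1) with 1 mean per group over the 24 libraries and 12 comparisons. Genes with a mean of at least 10 normalised counts were tested, 13542 of 14074, and called at a Benjamini-Hochberg adjusted p under 0.1. Fold changes are on this log2 scale and are too small for low genes. Gene positions are from GENCODE vM21, matched by identifier for 14061 of 14074 genes. A list score is the mean of its genes' log2 values, centred over libraries.

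The members and all lists were chosen with earlier results of these data known. Named genes were the members, and of each list the 2 tested genes with the highest mean and up to 2 more with the largest called change, with Fkbp5 as label check and the 10 genes most like the members. Called genes outside this rule are named where a list has few. Marker lists covered other leptomeningeal fibroblasts, choroid plexus and ependyma, endothelium, mural cells, border macrophages, microglia, blood, astrocytes, oligodendrocytes, pyramidal and GABAergic neurons and striatum, with 4 pathway lists.

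Tested on simulated data for the DEX comparison in AS mice, with 200 of 13542 genes changed, limma recovered 85% of 1.5-fold and 97% of 2-fold changes with 10.8% false calls, against 13.1% for edgeR and 20.9% for DESeq2. The simulated spread between mice was set from each gene's mean, not fitted to these libraries, and was below that of most members. For the members the SE of this comparison was 0.17 to 0.35. The recovered shares therefore do not apply to them, and members not called may still have changed. Alternatives were a pseudocount of 8, a mean of at least 100, no filter, quantile normalisation, only the groups compared, library size as covariate, edgeR 4.0.16 quasi-likelihood, DESeq2 1.42.0, the other leptomeningeal fibroblast score as covariate and each library left out. Leaving out PS DEX mice 34 and 56 together, and a score without DEX-called genes, were added after the data were seen. Nothing in the labels marks a batch. Each library is 1 mouse, so p-values measure the spread between mice. A few results on named marker or pathway genes are not reported here.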

Additional observations from a re-analysis of the deposited data

Results flagged for a closer look

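In AS DEX, mouse 72 lay far from the rest of its group in the score of the 9 leptomeningeal fibroblast genes, at 0.256 against -0.348 to -0.340 in mice 38, 42 and 60, a gap of 0.987 of the group's range. No single member did so among the 54 pairs of a gene and a group examined. Chance marks about 1 in 20 groups in this way.

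The DEX response of Lyve1, the border macrophage marker, differed between AS and control mice by -1.27 (SE 0.28, limma, adjusted p = 0.0787). Its normalised counts were 49.0 to 63.3 in AS saline and 47.9 to 101 in AS DEX, against 31.1 to 38.5 and 95.2 to 108 in control mice. The DEX response of Stra6, the receptor for retinol-binding protein, differed likewise by -1.32 (SE 0.29, limma, adjusted p = 0.0787), with 236 to 430 in AS saline and 174 to 216 in AS DEX. Both were among the 46 genes called in this comparison, a count that became 0 with the fibroblast score as covariate and 713 without AS saline mouse 44.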

How the results depend on the processing

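No paired analysis was possible because mouse numbers do not recur between groups. No member was called in any alternative for PS or AS against control with saline, AS against PS with saline, AS against control with DEX, or the PS and AS-against-PS differences of DEX responses. For the other comparisons, the number of all genes called in the same fit is given in brackets. In control mice the DEX comparison had 3 members called with only the groups compared (Ogn, Slc6a13 and Fmod, beside 799 genes). It had 0 with edgeR (865), with DESeq2 (1019) or with the score without DEX-called genes (586). In PS mice it had 1 with PS DEX mice 34 and 56 left out (438). In AS mice it had 3 with only the groups compared (Aldh1a2, Dcn and Slc13a4, beside 784 genes) and 2 with both PS DEX mice left out (1360). It had 0 there with all genes in the table (1234), quantile normalisation (1195), the library size covariate (1068) or the score without DEX-called genes (636). The average DEX response had 0 with edgeR (2197) and 2 with DESeq2 (Lum and Igfbp2, beside 2334 genes). It had 2 with either score as covariate (1959 and 2069) and 2 with both PS DEX mice left out (2154). The AS difference from control had 1 with both left out (Slc6a13, beside 220 genes). With each library left out in turn, calls ran from 0 to 1 in control, 0 to 5 in PS, 0 to 1 in AS, 0 to 4 in the average, 0 to 2 for PS against control with DEX and 0 to 1 for the AS difference.

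Signs turned mostly with the covariate, a score that follows the members closely, so such turns are partly set by its choice. With the score of 29 genes, members were negative in 3 of 9 for PS and 5 of 9 for AS against control with saline, and positive in 3 of 9 for PS and 7 of 9 for AS against control with DEX (AS median 0.07), with 0 called. With the score of 29 genes, the DEX change in control became -0.02 for Dcn, -0.18 for Lum, -0.03 for Islr and -0.13 for Aldh1a2. In PS it became 0.23 for Fmod, 0.34 for Slc6a13 and 0.01 for Slc13a4, and in AS 0.06 for Dcn, 0.36 for Ogn, 0.50 for Fmod, 0.31 for Slc6a13 and 0.11 for Slc13a4. Without the DEX-called genes in the score, it became -0.10 for Dcn, -0.24 for Lum, -0.09 for Islr, -0.08 for Slc13a4 and -0.21 for Aldh1a2 in control, 0.14 for Fmod and 0.26 for Slc6a13 in PS, and 0.26 for Ogn, 0.40 for Fmod, 0.23 for Slc6a13 and 0.00 for Slc13a4 in AS. In control, with each library left out, Lum ran from -0.19 (without control saline mouse 106) to 0.39, and Igfbp2 from -0.20 to 0.03 (without control DEX mouse 112), with 0.01 without control saline mouse 117. The causes were not tested.

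Over all genes and alternatives, calls ran from 52 to 506 for PS against control with saline (207 as reported), 5 to 99 for AS (16), 0 to 11 for AS against PS, 586 to 1046 for DEX in control (915), 438 to 920 in PS (767), 593 to 2028 in AS (1262), 0 to 262 for PS against control with DEX (27), 0 to 418 for AS (123), 0 to 25 for the PS difference and 0 to 713 for the AS difference (46). Lum, at 18 reads in the shallowest case, is the member most limited by depth, and 4 mice per group limit them all.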

Other observations

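Among cells outside the meninges, microglia genes fell with DEX in stressed mice, 3 of 8 in PS and in AS (P2ry12, Siglech and Cx3cr1), and P2ry12 also fell in control mice. P2ry12, the purinergic receptor of resting microglia, fell by 0.42 in control, 0.69 in PS (limma, adjusted p = 5.25e-07) and 0.51 in AS (SE 0.07 each). Aqp4, the water channel of astrocyte endfeet at vessels and the brain surface, fell by 0.54 in PS (SE 0.09, adjusted p = 4.59e-04) and 0.49 in AS (SE 0.09, adjusted p = 9.61e-04). Over all genes 2.81% fell in PS and 5.28% in AS. Of 8 astrocyte genes 1 rose in control and in PS (Aldh1l1), 1 fell in PS and 2 in AS (Aqp4 and Gfap).

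Among striatal genes Drd1, a dopamine receptor, rose with DEX in AS. Of 6 pyramidal neuron genes Neurod6 fell in control and Tbr1 and Neurod2 rose in AS. Of 6 GABAergic genes Vip rose in control with DEX and in PS against control with saline (0.36, SE 0.10, adjusted p = 0.0747), and Pvalb rose in AS with DEX. Of 8 oligodendrocyte genes Mag fell in control with DEX. The 5 blood genes and the 3 choroid plexus and ependyma genes had 0 calls in the DEX comparisons of control, PS and AS mice and under stress. The median change of the blood genes with DEX in PS was -0.80, with none called.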
